A study of Mus musculus with 15 samples.

Results

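Several of the genes that kidney researchers use to recognise injured or dedifferentiated tubule cells were read in mouse proximal tubules and whole kidney from animals with no injury named in the labels. The set held 10 genes of the 47069 in the expression table, namely Havcr1, Lcn2, Vcam1, Spp1, Krt8, Krt18, Krt20, Cd44, Vim and Sox9, each found by its symbol. Of these, Krt8 was as abundant in the tubules as in whole kidney, at 76.5 TPM against 73.6 TPM. Its filament partner Krt18 was nearly absent from the tubules, at 0.132 TPM against 28.3 TPM in kidney. Havcr1 was low in both kinds of sample. Spp1, Vim, Lcn2, Vcam1, Cd44, Krt20 and Sox9 were lower in every tubule library than in every kidney library.

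The study asked how genes typical of single kidney cell types appear in whole kidney RNA-Seq. All 15 libraries came from male C57BL/6 mice aged 2 months, and the labels name no genotype change, treatment or injury. Of these, 12 were microdissected proximal tubules in sets m1, m2 and m3 with 4 replicates each, called PTS2 libraries here after the label PTS2 (the S2 segment in the usual naming), and 3 were whole kidney. The labels do not say what the letter m or the replicate number stands for, or whether libraries came from separate animals, so p-values measure the spread between these libraries.

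Values are TPM, which divide out transcript length and bring each library to the same total, so levels can be ordered between genes. Between tubules and kidney, which differ in composition, levels also depend on the scaling used. The number of reads behind a value cannot be read from TPM, so depth is unknown and low values carry no counting interval. Libraries held between 10983 and 11511 genes of at least 1 TPM in PTS2 and between 13236 and 13328 in kidney. All 14 proximal tubule markers chosen for the check of the label were measured in PTS2, where the apical receptor gene Lrp2 averaged 99.1 TPM. Among them, Slc5a2 and Slc5a12, genes of the early part of the proximal tubule, were nearly absent, at 0.698 TPM and 0.103 TPM against 621 TPM and 119 TPM in kidney. Slc7a13, a gene of the later proximal tubule, averaged 1803 TPM against 773 TPM. By the limma test, 4 of the 14 were called higher in PTS2 than in kidney, 3 were called lower and 7 did not pass. Over all genes in that fit 9.68% were higher and 41.5% lower. Slc22a8 was lower along with Slc5a2 and Slc5a12, at 68.0 TPM against 272 TPM in kidney. Slc5a2 and Slc5a12 entered the fit through their kidney values, so the filter on mean TPM had already selected them for this direction. Replicate 3 of set m3 stood apart. Its 5 thick ascending limb markers summed to 1440.62 TPM, 56.1% of the kidney mean of 2569 TPM, whereas the other PTS2 libraries reached at most 55.83 TPM, in m1 replicate 4.

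Kidney tubule cells that are damaged by ischaemia, toxins or obstruction lose part of their specialised transport programme and switch on a set of genes that healthy cells hold low. Havcr1 encodes KIM-1, a membrane receptor with which surviving proximal tubule cells take up dead cells, and Lcn2 encodes NGAL, a secreted protein that binds iron-carrying siderophores; both proteins are measured in urine as signs of injury. Spp1 encodes osteopontin, Vcam1 and Cd44 encode adhesion receptors, and Sox9 encodes a transcription factor of kidney development and repair. Krt8, Krt18, Krt20 and Vim encode intermediate filament proteins: keratin filaments are built from pairs of a type I and a type II keratin, with keratin 8 (type II) and keratin 18 (type I) as the pair of simple epithelia, and vimentin is typical of mesenchymal cells.

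Krt8 and Krt18 are neighbours in the genome, and no protein-coding gene lies between them. Krt8 spans chr15:101996698-102004482 on the minus strand and Krt18 spans chr15:102028180-102032027 on the plus strand (GRCm38, GENCODE M21). They are transcribed away from each other, with 23.7 kb between them. The start regions of the 4 intermediate filament genes are shown because Krt8 was the single gene among them with an appreciable level in tubules. Each runs from 250 bases before to 50 bases after the transcript start in RefSeq (GRCm38.p6), 5′ to 3′ on the strand of the gene, with matches to TATAAA on either strand in capitals.
Krt8 chr15:102004293-102004592 (minus): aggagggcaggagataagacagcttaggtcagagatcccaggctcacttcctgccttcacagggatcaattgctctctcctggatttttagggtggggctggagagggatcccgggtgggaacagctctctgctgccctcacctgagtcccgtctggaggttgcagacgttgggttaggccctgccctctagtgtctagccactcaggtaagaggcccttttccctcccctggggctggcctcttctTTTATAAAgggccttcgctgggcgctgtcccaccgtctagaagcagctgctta
Krt18 chr15:102027966-102028265 (plus): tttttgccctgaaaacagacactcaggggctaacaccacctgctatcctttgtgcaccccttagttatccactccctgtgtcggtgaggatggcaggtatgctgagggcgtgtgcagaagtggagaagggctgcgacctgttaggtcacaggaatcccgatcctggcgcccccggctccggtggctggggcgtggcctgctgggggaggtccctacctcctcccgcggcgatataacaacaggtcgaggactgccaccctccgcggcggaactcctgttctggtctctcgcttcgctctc
Krt20 chr11:99438104-99438403 (minus): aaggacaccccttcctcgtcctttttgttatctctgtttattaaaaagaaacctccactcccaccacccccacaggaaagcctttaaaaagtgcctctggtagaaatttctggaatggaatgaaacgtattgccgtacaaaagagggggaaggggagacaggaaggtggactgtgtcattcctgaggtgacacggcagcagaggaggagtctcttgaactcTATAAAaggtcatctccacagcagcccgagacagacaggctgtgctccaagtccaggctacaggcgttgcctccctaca
Vim chr2:13574061-13574360 (plus): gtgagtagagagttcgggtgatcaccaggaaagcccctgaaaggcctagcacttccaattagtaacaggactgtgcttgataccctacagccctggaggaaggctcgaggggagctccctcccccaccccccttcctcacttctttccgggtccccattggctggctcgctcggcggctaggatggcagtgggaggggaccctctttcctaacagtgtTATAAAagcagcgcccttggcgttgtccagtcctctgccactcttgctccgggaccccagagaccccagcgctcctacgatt
The Krt8 region held 2 overlapping matches to TATAAA, 1 on each strand, directly at the annotated start. Krt20 held a match that began at position -29 and Vim a match at position -32 from the start, while Krt18 held none. Of all 32851 start regions in the RefSeq table, 13.6% held this motif. None of the 4 regions held GGGCGG, which 35.7% of all regions held, or TGANTCA, the AP-1 motif, which 7.81% held. Krt18 had 17 CpG dinucleotides and Krt8 had 6, against a median of 7 over all regions. These are descriptions of letters in fixed windows. The table gave entries for 8 of the 10 genes, and Vcam1 and Sox9 were not matched.

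Krt8 was the most abundant of the 10 genes in tubules. In TPM it read 77.03, 58.73, 70.64 and 68.65 in m1, 78.91, 70.30, 73.97 and 74.84 in m2, 82.29, 87.72, 82.59 and 92.07 in m3, and 64.75, 79.13 and 77.01 in whole kidney. The kidney values lay inside the PTS2 range, so the groups overlapped. The tubule mean was 76.5 ± 9.07 TPM (SD, n = 12), beside 73.6 ± 7.76 TPM (SD, n = 3) for kidney. The difference on the log2(TPM + 1) scale, 0.05 ± 0.10 (SE), did not pass the test (limma with Benjamini-Hochberg adjustment over all genes tested, adjusted p = 0.709). With median-of-ratios rescaling, which moved the median difference of all genes from -0.27 to 0.00, Krt8 was called higher in tubules (log2 difference 0.34, limma adjusted p = 0.00344), and with quantile normalization it was not (0.18, adjusted p = 0.0889). By mean TPM, Krt8 ranked 1909 among the genes in PTS2 and 2127 in kidney.

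Krt18 gave the opposite picture in the same libraries. It read at most 0.40 TPM in any PTS2 library, with a median of 0.105 TPM, and was listed at 0 in 2 of the 12 (m1 replicate 2 and m2 replicate 4). In whole kidney it read 26.42, 25.22 and 33.14 TPM, so that the lowest kidney library lay 63.1 times above the highest tubule library. Every tubule library was below every kidney library, and the log2 difference was -4.69 ± 0.13 (SE; limma adjusted p = 2.04e-14). Krt18 entered the fit through its kidney values, so the filter on mean TPM had already selected it for this direction. Among the genes in this fit, 32.0% had all PTS2 libraries below all kidney libraries and 41.5% were called lower in PTS2. Here as in all bulk samples, fewer cells of a type and less RNA per cell cannot be told apart. Sums of markers of other kidney epithelia were also lower in tubules. The 6 collecting duct markers summed to 9.10 to 58.69 TPM in tubules and 749.6 to 1010.97 TPM in kidney. The 5 urothelial markers summed to 0 to 0.43 TPM and 24.17 to 33.25 TPM. The 5 thick ascending limb markers summed to 4.75 to 1440.62 TPM in tubules and 2425.47 to 2723.45 TPM in kidney. In m3 replicate 3, which held the highest of these tubule sums, Krt18 read 0.05 TPM. The part of these epithelia in the Krt18 difference was not tested.

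**Figure D1:**
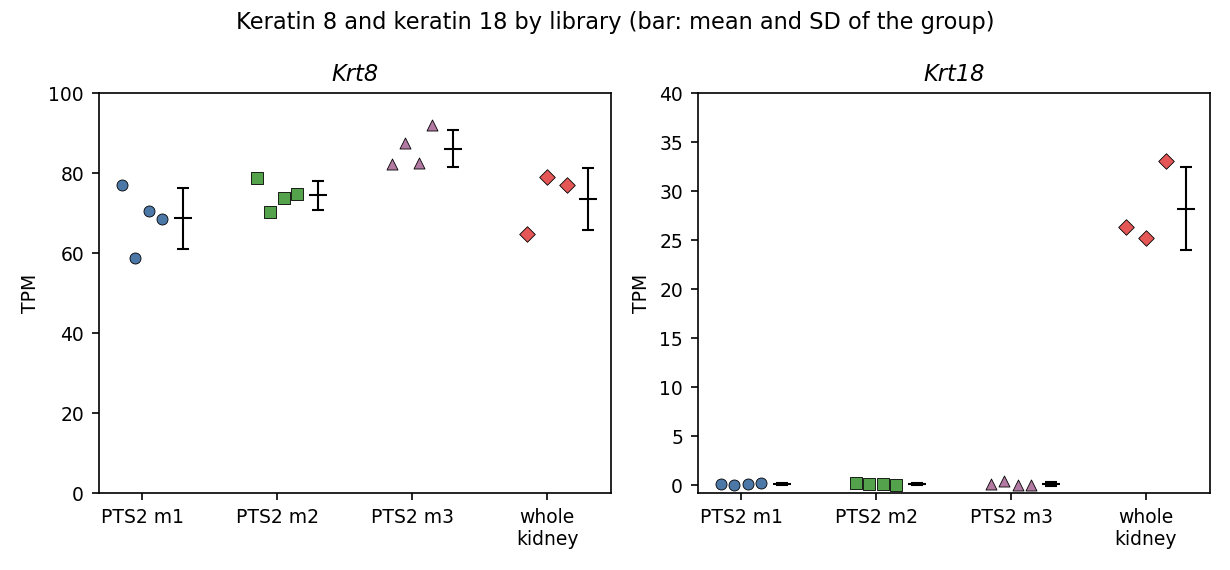
TPM of Krt8 (left) and Krt18 (right) in the 4 libraries of each PTS2 set and in the 3 whole kidney libraries; each point is a library, and the bar beside each group is its mean and SD. Krt8 lies between 58.73 and 92.07 TPM in tubules and overlaps whole kidney, whereas Krt18 stays at or below 0.40 TPM in tubules and at or above 25.22 TPM in whole kidney.

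Set against its partner within each library, Krt18 amounted to 0 to 0.456% of Krt8 in the 12 tubules, with a median of 0.145%. In whole kidney it was 40.8%, 31.9% and 43.0% of Krt8. The ranges did not overlap (exact two-sided permutation test, p = 0.0022, the smallest that 12 against 3 libraries allow). The ratio was chosen after its values were seen. Krt18 alone already separated the groups while Krt8 overlapped, so this p-value adds no support. Apart from Krt10 and Krt18, the type I keratins in the table summed to at most 0.52 TPM in any tubule library and to between 13.28 and 18.67 TPM in kidney. Krt10, a type I keratin best known from skin, read 5.18 ± 0.546 TPM (SD, n = 12) in tubules and 6.35 ± 0.369 TPM (SD, n = 3) in kidney. Even with Krt10 counted, type I keratins summed to between 5.73% and 8.85% of the type II sum in tubules, against 36.7% to 44.4% in kidney. The type II keratins other than Krt8 had a median sum of 0.365 TPM in tubules. This sum reached 8.61 TPM in m3 replicate 3, of which Krt7, a keratin of distal and collecting tubules, gave 8.25 TPM.

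The 2 genes sit in a stretch of chromosome 15 in which the annotation gives keratin genes on the Krt8 side and unrelated genes on the Krt18 side. Krt4, Krt79 and Krt78 averaged at most 0.0025 TPM in tubules. On the other side, Eif4b, a translation initiation factor, averaged 36.0 TPM in tubules and 49.3 TPM in kidney, and Tns2, a tensin of cell adhesions, averaged 15.6 TPM and 28.7 TPM. Krt18 therefore lay between 2 genes that were expressed in the tubules. Krt8 shares 271 bases with a long noncoding gene on the opposite strand, Gm36026. Whether the authors' counting used strand is not stated, so reads in these bases cannot be assigned with certainty.

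Krt20, a keratin of differentiated gut and urothelial cells that rises in injured tubules, was close to 0 throughout. It was listed at 0 in 8 of 12 tubule libraries and reached 0.15 TPM in m2 replicate 2, against 0.36, 0.24 and 0.27 TPM in kidney. The groups did not overlap (exact two-sided permutation test of the difference in mean TPM, p = 0.0022, the smallest possible). As for the keratin ratio above and for Cd44 and Sox9 below, this test shuffled all 15 libraries as independent and ignored the PTS2 sets. A 0 in a TPM table can be a failed estimate, so levels this low are given as listed.

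Vim was listed at 0 in 3 tubule libraries (m1 replicates 2 and 3 and m2 replicate 3), had a median of 0.115 TPM and reached 0.54 TPM in m2 replicate 4. In whole kidney it read 10.84, 11.93 and 13.58 TPM, and no tubule library came near that range. The log2 difference was -3.50 ± 0.15 (SE; limma adjusted p = 5.50e-12). As for Krt18, the kidney values brought Vim into the fit. Most markers of the cells known to carry vimentin moved with it. The 8 endothelial markers were all below kidney in every tubule library, with a summed level of 18.5 to 65.51 TPM against 233.53 to 244.42 TPM. Of 10 fibroblast and mural markers, 9 lay below kidney in every tubule library, and the exception was Cspg4 (2.60 TPM against 2.49 TPM), which quantile normalization called higher. The 10 summed to 3.54 to 11.16 TPM against 159.68 to 180.29 TPM. Of all genes above 0 in any library, 20.0% lay below kidney in every tubule library. The part of these cells in the Vim difference was not tested.

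Of the 10 other keratins in a list of epithelial keratins, 2 were in the fit and both were lower in tubules. These were Krt7 (0.837 TPM against 47.7 TPM; log2 difference -5.15 ± 0.49) and Krt19 (0.135 TPM against 8.58 TPM; -3.06 ± 0.15), both keratins of ducts and distal tubules. None of the 10 averaged 1 TPM in tubules, so Krt7 and Krt19 entered the fit through their kidney values and nothing is read from that count; over all genes in the fit 41.5% were called lower. Among 8 other intermediate filament genes, the nuclear lamin gene Lmna was level between the groups, at 39.9 ± 4.77 TPM (SD, n = 12) and 40.2 ± 1.26 TPM (SD, n = 3). Its log2 difference was -0.02 ± 0.10 (SE; limma adjusted p = 0.907). With median-of-ratios rescaling Lmna was called higher in tubules (0.27, limma adjusted p = 0.0488), and with quantile normalization it was not (0.24, adjusted p = 0.0610). Des, the muscle filament gene desmin, averaged 0.233 TPM in tubules and 4.69 TPM in kidney, and also entered the fit through its kidney values.

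Havcr1 was the gene of the set with the largest mean ratio of tubules to kidney, 175%, but its values overlapped. In TPM it read 2.62, 1.57, 2.05 and 1.28 in m1, 5.80, 4.87, 2.92 and 1.84 in m2, 3.16, 1.44, 2.48 and 1.34 in m3, and 1.24, 1.84 and 1.40 in kidney. The 2 highest values were both in m2, and replicate 4 was the lowest of its set in all 3 sets. Tubules averaged 2.61 ± 1.43 TPM (SD, n = 12), beside 1.49 ± 0.311 TPM (SD, n = 3) for kidney. The log2 difference of 0.45 ± 0.29 (SE) did not pass the test (limma adjusted p = 0.197). Quantile normalization alone among the scalings gave a call, with a log2 difference of 1.34 (limma adjusted p = 0.000396). With a coefficient of variation of 54.6% over the 12 tubule libraries, Havcr1 was more variable than 94.8% of the 11300 genes that averaged at least 1 TPM in PTS2, where the median was 17.8%. Krt8 had a coefficient of variation of 11.9%, and 24.2% of genes had a lower one.

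Lcn2, the gene of NGAL, was listed at 0 in 8 of the 12 tubule libraries. The other 4 read 0.12 TPM in m1 replicate 1, 0.04 and 0.18 TPM in m2 replicates 1 and 3, and 0.24 TPM in m3 replicate 3. Whole kidney read 4.23, 5.26 and 7.74 TPM, far above every tubule library. The log2 difference was -2.66 ± 0.14 (SE; limma adjusted p = 1.34e-10). Lcn2 likewise entered the fit through its kidney values. Slc22a17, the gene of an NGAL receptor, averaged 9.57 ± 1.32 TPM (SD, n = 12) in tubules and 17.3 ± 1.56 TPM (SD, n = 3) in kidney and was called lower (-0.80 ± 0.13, limma adjusted p = 5.74e-05).

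Spp1 was the most abundant gene of the set in kidney and low in tubules. Set m1 read 10.37, 6.18, 10.33 and 13.84 TPM, set m2 18.58, 19.82, 13.33 and 9.11 TPM, and set m3 6.64, 11.09, 102.69 and 4.91 TPM. Whole kidney read 1581.32, 1150.03 and 1575.74 TPM, where Spp1 ranked 85 among all genes. Even the high library, m3 replicate 3, was well below kidney. The log2 difference was -6.69 ± 0.60 (SE; limma adjusted p = 7.96e-08). The PTS2 mean of 18.9 TPM fell to 11.3 TPM without m3 replicate 3, and the direction and call held without it and without m1 replicate 4 as well. Spp1 shares 1252 bases with Gm42793 on the same strand, which averaged 0.0217 TPM in tubules and 0.89 TPM in kidney.

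**Figure D2:**
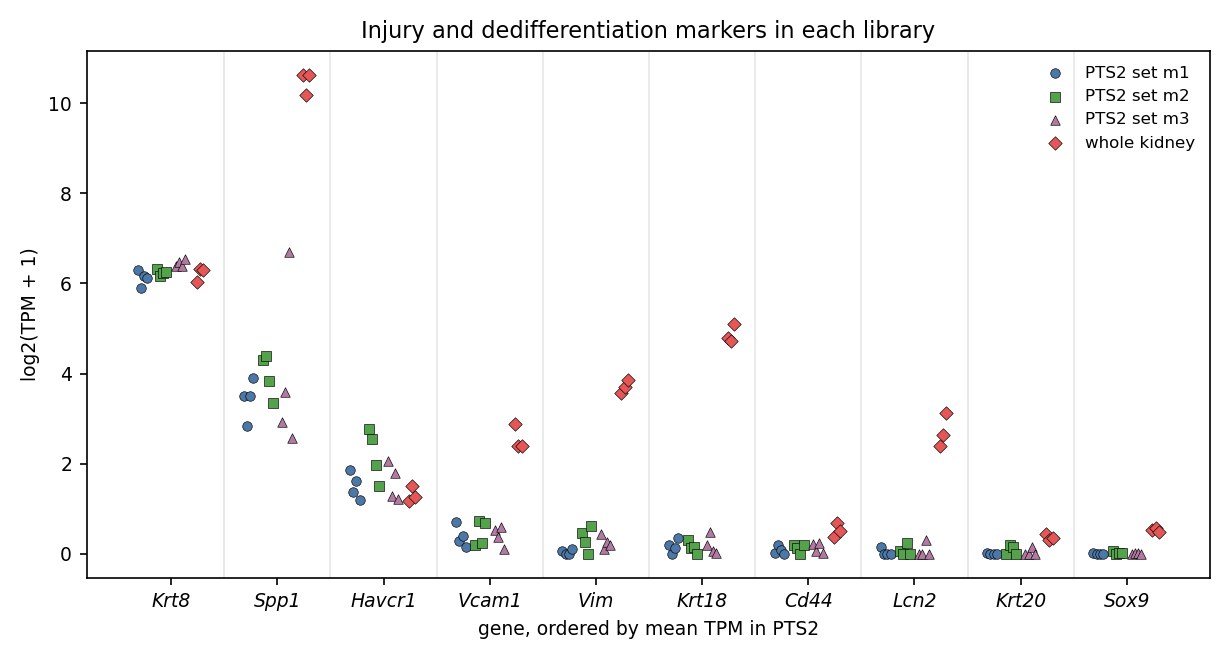
log2(TPM + 1) of the 10 genes in each library, ordered by mean TPM in PTS2; symbols mark the PTS2 sets m1, m2 and m3 and whole kidney, with 1 point for each library. Krt8 and Havcr1 overlap between tubules and kidney, and in the other 8 genes every kidney point lies above every tubule point, with m3 replicate 3 as the high Spp1 point at 102.69 TPM.

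Osteopontin binds integrins and CD44, and VCAM-1 binds an integrin of leukocytes. Vcam1 itself was detected in all 12 tubule libraries, from 0.08 TPM in m3 replicate 4 to 0.66 TPM in m2 replicate 2 with a median of 0.305 TPM. In kidney it read 6.42, 4.24 and 4.29 TPM, with no overlap. The log2 difference was -2.14 ± 0.17 (SE; limma adjusted p = 1.95e-08). Vcam1 also entered the fit through its kidney values. Markers of endothelium and macrophages, cells known to carry VCAM-1, moved with it for the most part: all 7 endothelial markers in the fit and 6 of 7 macrophage markers were called lower in tubules. The exception was Csf1r, the macrophage growth factor receptor gene, which was called higher (39.1 TPM against 21.1 TPM, limma adjusted p = 0.0481). Cd68, called lower at 0.782 TPM in tubules and 4.91 TPM in kidney, entered the fit through its kidney values. The macrophage sum had a median of 93.3 TPM in tubules against a mean of 509 TPM in kidney. By mean TPM, Cd74 (44.9 TPM) and Csf1r were its largest parts in tubules. Over all genes in the fit 41.5% were called lower. The part of these cells in the Vcam1 difference was not tested. Vcam1 overlaps the antisense gene Gm43109, which averaged 0.0033 TPM in tubules and was listed at 0 in kidney.

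Cd44 was listed at 0 in m1 replicate 4 and m2 replicate 3, had a median of 0.08 TPM and reached 0.18 TPM in m3 replicate 3, against 0.29, 0.61 and 0.42 TPM in kidney. The difference in mean TPM had p = 0.0022 in the exact two-sided permutation test, the smallest possible. Of 10 genes of partners and ligand synthesis, 4 were in the fit, with 3 lower and none higher in tubules. Over all genes in the fit 41.5% were lower and 9.68% higher, so nothing is read from a count over 4 genes. The integrin chains Itgb1 and Itgb5 were called lower (log2 differences -0.65 ± 0.14 and -0.83 ± 0.10), while Itgav averaged 41.1 TPM in tubules and 52.6 TPM in kidney and did not pass (limma adjusted p = 0.0617). The hyaluronan synthase genes Has1, Has2 and Has3, which make the main ligand of CD44, averaged at most 0.127 TPM in either group.

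Sox9 was the lowest of the 10 genes in tubules. It was listed at 0 in 6 libraries and reached 0.05 TPM in m2 replicate 1, against 0.44, 0.48 and 0.39 TPM in kidney. The groups did not overlap (exact two-sided permutation test, p = 0.0022, the smallest possible). Among 12 other SOX and nephron progenitor genes, 4 were in the fit and 3 were lower in tubules. Over all genes in the fit 41.5% were called lower, so nothing is read from this count. Pax8, a transcription factor of nephron epithelium, averaged 88.4 ± 15.7 TPM (SD, n = 12) in tubules and 79.6 ± 4.59 TPM (SD, n = 3) in kidney and did not pass (limma adjusted p = 0.485). Sox4 read 0.0792 TPM in tubules and 3.63 TPM in kidney, where the ranges did not overlap. Of all genes above 0 in any library, 20.0% had every tubule library below every kidney library. Under the scalings this list changed: Pax8 was called higher with median-of-ratios rescaling, and with quantile normalization 1 of the 4 remained called lower.

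Of the 10 genes, 7 entered the limma fit against whole kidney, and 5 were called, all lower in tubules: Krt18, Spp1, Vim, Lcn2 and Vcam1. Over all 12039 genes in that fit, 51.2% were called, 41.5% lower and 9.68% higher. Krt18, Vim, Lcn2 and Vcam1 averaged below 1 TPM in tubules and passed the filter through their kidney values, so their presence in the fit already meant a difference. Without that filter 8 of the 10 genes were called lower, against 26.9% of genes. Counted by overlap, 8 of the 10 genes had every tubule library below every kidney library, and 20.0% of all genes above 0 in any library did. The 5 calls kept their direction under both other scalings. As a check this bears on Spp1 alone, since the filter had already selected Krt18, Vim, Lcn2 and Vcam1 for higher kidney values.

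Other genes known from tubule injury were read from the same fit. Of 30 in a list, 24 were in the fit: 3 were higher in tubules, 12 were lower and 9 did not pass, with a median log2 difference of -0.41 against -0.27 for all genes. Over all genes in the fit 9.68% were higher and 41.5% lower, so these counts are near the background and nothing is read from them about injury genes. The lower genes included Clu, the secreted chaperone clusterin (39.4 TPM in tubules and 336 TPM in kidney), and Anxa2, an annexin (3.11 TPM and 83.8 TPM). Lgals3, a galectin (1.45 TPM and 78.6 TPM), Cd24a, the gene of the surface protein CD24 (4.02 TPM and 103.5 TPM), and Prom1 (11.4 TPM and 75.7 TPM) were also lower. Prom1 encodes CD133, a membrane protein used to mark immature epithelial cells.

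The 3 higher genes were Plin2, a lipid droplet coat protein (152 ± 6.71 TPM, SD, n = 12, and 103 ± 12.8 TPM, SD, n = 3), Il34, a ligand of the macrophage growth factor receptor (56.8 TPM and 38.1 TPM), and Dcdc2a (7.78 TPM and 3.23 TPM). Hmox1, the haem-degrading stress enzyme, averaged 46.8 TPM and 44.5 TPM, and S100a11 averaged 297 TPM and 278 TPM; neither passed the test. With median-of-ratios rescaling 5 of the 24 were higher and 9 lower, and with quantile normalization 6 were higher and 8 lower. Among genes called lower, Tnfrsf12a, Cdkn1a and Icam1 were no longer called under either rescaling, and Cxcl1 was not called under quantile normalization. The 6 immediate early genes in the fit, which many stimuli switch on within minutes, were all lower in tubules, among them Jun (3.65 TPM and 23.2 TPM) and Ier3 (4.44 TPM and 57.3 TPM). All 6 also read lower in every tubule library than in every kidney library. Over all genes in the fit, 41.5% were called lower and 32.0% had no overlap in that direction, and Egr1, at 0.148 TPM in tubules, entered through its kidney values. With quantile normalization 4 of the 6 were called.

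**Figure D3:**
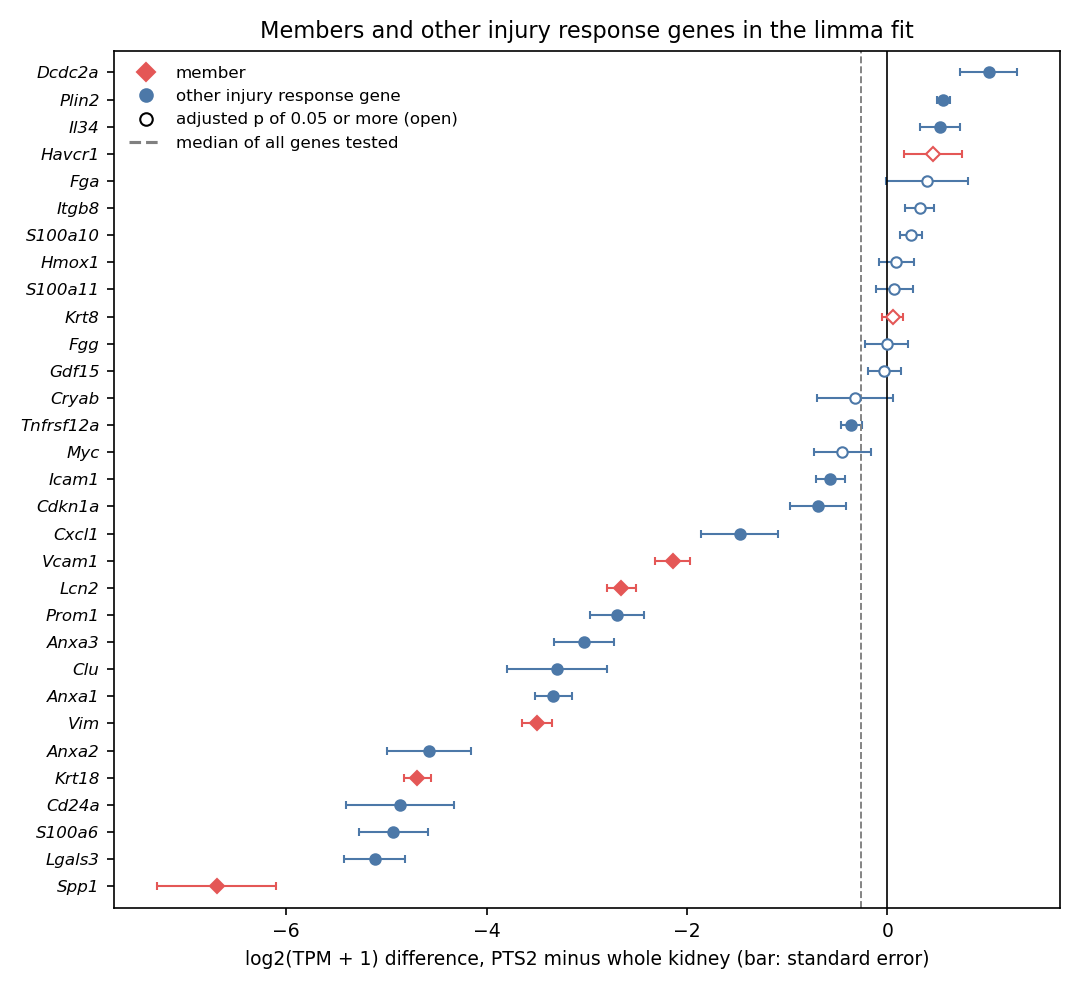
Differences in log2(TPM + 1) between PTS2 and whole kidney for the 7 members in the fit (red diamonds) and 24 other injury response genes (blue circles), with the standard error as bar; filled symbols passed the limma test and open symbols did not, and the dashed line is the median of all genes at -0.27. Spp1 is the lowest at -6.69, Krt8 lies at 0.05 and Havcr1 at 0.45, and Dcdc2a, Plin2 and Il34 are the filled symbols above 0.

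Among the PTS2 sets, none of the 3 genes in the fit (Krt8, Havcr1 and Spp1) passed the limma F test with adjustment over 11300 genes, where 3.02% of genes were called. Among the 3, Krt8 alone had an unadjusted limma p under 0.05 (adjusted p = 0.113), as 16.4% of all genes did. Set m1 averaged 68.8 ± 7.58 TPM, set m2 74.5 ± 3.53 TPM and set m3 86.2 ± 4.66 TPM of Krt8 (SD, n = 4 each). Every m3 library, from 82.29 TPM upwards, exceeded every m1 and m2 library, of which the highest read 78.91 TPM. The share of all genes with such a separation was not computed. The contrast of m3 with m1 was 0.33 ± 0.08 on the log2 scale (SE; limma adjusted p = 0.0568; 3.17% of genes were called in that contrast). Over 20 settings the limma adjusted p of this contrast ranged from 0.0206 to 0.182, so the call depended on the setting. It passed, for example, without m1 replicate 1 (0.38, adjusted p = 0.0206) and when tested among genes of at least 10 TPM (adjusted p = 0.0400).

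For Havcr1, set m1 averaged 1.88 ± 0.587 TPM, set m2 3.86 ± 1.80 TPM and set m3 2.11 ± 0.872 TPM (SD, n = 4 each). Its sets overlapped, and the contrast of m2 with m1, 0.70 ± 0.28 on the log2 scale, did not pass (limma adjusted p = 0.414; 0.54% of genes were called in that contrast). Spp1 did not pass either (F test, limma adjusted p = 0.854). The Spp1 mean of m3, 31.3 TPM, rested on replicate 3, since the other 3 libraries of that set lay between 4.91 and 11.09 TPM. Of the other injury genes, 3 of 22 in this fit were called among the sets, where 3.02% of all genes were called. The list was chosen with earlier results of these data known, so nothing is read from this count. These were Hmox1 (53.9, 49.9 and 36.7 TPM, in the order m1, m2, m3), Fga, a fibrinogen chain (33.1, 39.5 and 15.3 TPM), and Il34 (58.1, 42.0 and 70.3 TPM). In the F test their limma adjusted p-values were 0.0281, 0.0137 and 0.0429.

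Spp1 varied together with thick ascending limb markers over the 12 tubule libraries. Umod, Slc12a1, Cldn16, Kcnj1 and Ptger3 are genes of that segment, which follows the proximal tubule and thin limbs. The highest Spp1 library, m3 replicate 3, also held the highest marker sum, and m3 replicate 4 held the lowest of both, 4.91 TPM of Spp1 and 4.75 TPM of markers. Over 12 libraries, Pearson's r of the log2 values was 0.94 (permutation p = 0.000470, adjusted p = 0.00352) and Spearman's rho was 0.93 (permutation p = 4.00e-05, adjusted p = 0.000600). With the set means removed r was 0.95 (permutation, adjusted p = 0.000300). Without m3 replicate 3, r was 0.74 (permutation, adjusted p = 0.0767) and rho 0.91 (adjusted p = 0.00345). Without the 2 libraries farthest from the median marker sum, r was 0.79 (permutation, adjusted p = 0.0584) and rho 0.94 (adjusted p = 0.00390). In both cases r kept its sign, the adjusted p of r was above the threshold over fewer libraries, and that of rho stayed below it. Spp1 in m3 replicate 3 stood at 7.15% of its kidney mean, and the 5 markers at 18.3% (Kcnj1) to 62.2% (Umod) of theirs. In that library Krt18 (0.05 TPM), Vim (0.20 TPM) and Sox9 (0.01 TPM) remained within the range of the other tubules, as did Havcr1, Vcam1, Krt8 and Krt20. Lcn2 (0.24 TPM, others at most 0.18 TPM) and Cd44 (0.18 TPM, others at most 0.16 TPM) lay just above it.

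Havcr1 fell as the collecting duct marker sum rose across the same libraries. The library with the highest Havcr1, m2 replicate 1 at 5.80 TPM, had the lowest sum, 9.10 TPM, and m1 replicate 4, with the lowest Havcr1 at 1.28 TPM, had the highest, 58.69 TPM. Pearson's r was -0.84 (permutation p = 0.000310, adjusted p = 0.00352) and rho was -0.83 (permutation p = 0.00143, adjusted p = 0.0107). With the set means removed r was -0.85 (permutation, adjusted p = 0.00285). Without the 2 libraries farthest from the median, r was -0.78 (permutation, adjusted p = 0.0584) and rho -0.70 (adjusted p = 0.230), so neither passed over the 10 remaining libraries. The pattern also followed the replicate number. In each of the 3 sets, replicate 1 had the highest Havcr1 and the lowest sum, and replicate 4 the lowest Havcr1 and the highest sum. With the means of each replicate number removed and values permuted within numbers, r was -0.72 (exact permutation, adjusted p = 0.179), so number and marker sum cannot be told apart here. The name of the list describes this sum poorly in tubules. Aqp3, a basolateral water channel, made up 64.0% to 88.5% of it there and at most 17.8% in kidney, whereas the defining gene Aqp2 read 0 to 6.90 TPM in tubules and at least 370.69 TPM in kidney. In all, 15 such pairs of 3 genes and 5 marker sums were computed, and these 2 had an adjusted p under 0.05. Krt8 had none, with r between -0.23 and 0.40.

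**Figure D4:**
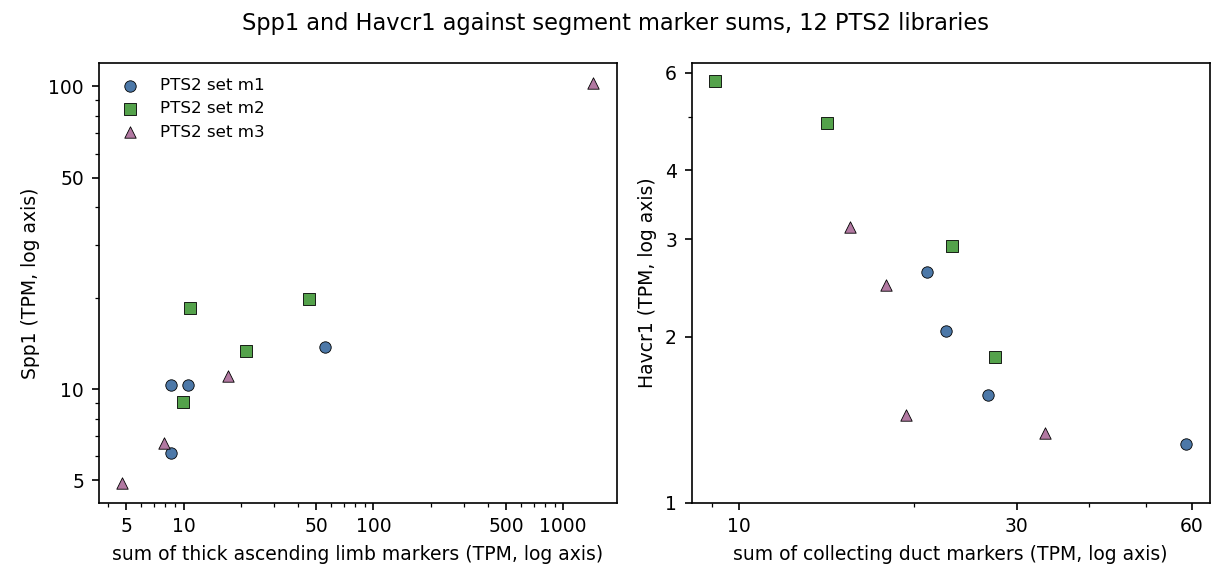
Left, Spp1 against the sum of 5 thick ascending limb markers; right, Havcr1 against the sum of 6 collecting duct markers, in TPM on log axes for the 12 PTS2 libraries, with symbols for the sets. Spp1 rises with its sum up to m3 replicate 3 at the upper right (1440.62 TPM of markers, 102.69 TPM of Spp1), and Havcr1 declines from 5.80 TPM to 1.28 TPM as its sum rises from 9.10 to 58.69 TPM.

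The genes that tracked each of the 3 detected genes most closely over the 12 tubule libraries, among 11299 others, were taken by Pearson's r of log2(TPM + 1) as a description. For Spp1 they included Slc12a1 (r = 0.94) and Egf (0.93), and in m3 replicate 3 these read 150.97 and 338.91 TPM. Without that library the closest genes to Spp1 were Spata13 (0.89), Kif22 (0.89) and Kif20a (0.87), so the first names rested on it. For Havcr1 they were Cecr2 (0.93), Mro (0.93) and Osbpl8 (0.90). For Krt8 they were Rnf114 (0.95), Fbxl2 (0.95) and Rnf180 (0.94). Without m3 replicate 3, Cecr2 stayed among the closest 3 for Havcr1 and Fbxl2 for Krt8, and the other 2 names changed in each case. All of these libraries share the set structure and the common TPM total, and the highest of many correlations over 12 points is high by selection.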

How the data were processed

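PolyA RNA of 12 PTS2 and 3 whole kidney libraries was extracted with a Zymo kit, turned into cDNA with a SMART-Seq V4 low-input kit and sequenced on an Illumina instrument, per the labels' protocols. STAR 2.5.1b, RSEM 1.2.31 and GRCm38.p5 are named in the submitters' processing notes. The authors deposited 1 table of TPM values for 47069 genes; each library sums to 1000000 apart from rounding.

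Libraries were grouped by the description labels, and no columns held identical values. The 10 members and 17 gene lists (153 genes) were chosen with earlier results of these data known, and lists serve as description. Tests used limma (version 3.58.1, R 4.3.3, mean-variance trend) on log2(TPM + 1) for genes averaging at least 1 TPM, with Benjamini-Hochberg adjustment over all genes tested and a threshold of 0.05. Differences on this scale understate the change of low genes. The PTS2 set was a correlated block against kidney (correlation 0.0669); the sets were compared with an F test. The fits were tested on simulated data. Members below the filter had exact permutation tests, which took all 15 libraries as independent and ignored the sets. Correlations had 100000 permutations. Marker sums add the TPM of the list's genes. Named genes were the members, list genes and the 3 genes most correlated with each detected member, of which 1 is not reported here; neighbouring and overlapping genes and the keratin types were added after values were seen.

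Positions came from GENCODE M21 and start regions from RefSeq (GRCm38.p6). Other tools were scipy 1.17.1, numpy 2.4.6, pandas 2.3.3 and matplotlib 3.10.9 under Python 3.11.15. Alternatives covered each library left out in turn, quantile normalization, median-of-ratios rescaling, blocking on the replicate number, a single mean for each set, independent libraries within sets, a pseudocount of 0.1, and a filter at 10 TPM or none. Leaving out m3 replicate 3 and m1 replicate 4 together was added after seeing the data, as were correlations within replicate numbers.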

Additional observations from a re-analysis of the deposited data

Results flagged for a closer look

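Among 45 groups of 4 libraries checked, covering the members and the marker sums in each PTS2 set, 9 held a library whose gap to its nearest neighbour exceeded Dixon's critical value for a group of 4; chance gives about 1 in 20 groups. That rate does not apply to 5 of the 9, those of Lcn2, Krt20 and Sox9, where the other 3 libraries of the set were listed at 0 and any value above 0 exceeds the limit.

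Spp1 read 102.69 TPM in m3 replicate 3, where the next library of the set read 11.09 TPM. In the same library the thick ascending limb marker sum was 1440.62 TPM (next 17.10 TPM), Lcn2 read 0.24 TPM and Krt20 read 0.11 TPM, while the other 3 libraries of m3 were listed at 0 for both genes. Krt7 (8.25 TPM) and Cd24a (24.88 TPM), genes of other lists, were also highest there, against at most 0.67 and 3.57 TPM in the other tubules.

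In m1 replicate 4 the thick ascending limb sum was 55.83 TPM (next 10.61 TPM) and the collecting duct sum 58.69 TPM (next 26.78 TPM). Spp1 was highest of its set in that library, at 13.84 TPM, and Havcr1 lowest, at 1.28 TPM.

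In m1 replicate 1, Lcn2 read 0.12 TPM, Krt20 read 0.02 TPM and Sox9 read 0.02 TPM, with the other 3 libraries of m1 listed at 0 for each; these levels are too low to interpret without the depth.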

How the results depend on the processing

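No called difference of a member, and no called correlation, turned direction under any setting run, and 533 of 557 recomputed values kept their side of the threshold or moved little. The filter had already selected Krt18, Vim, Lcn2 and Vcam1 for higher kidney values, except in the run without it. With no filter on low values, 8 members and 9399 genes were called against kidney and 196 genes among the sets, in place of 5, 6161 and 341. With a mean of at least 10 TPM, 1 member (Spp1) and 3113 genes were called against kidney, since Krt18, Vim, Lcn2 and Vcam1 then left the test. Leaving out single libraries gave 3 to 5 members and 4761 to 6712 genes against kidney. The 3 came without whole kidney replicate 1, when Lcn2 and Vcam1 fell under the filter. Among the sets it gave 0 to 1 members and 197 to 563 genes, and the 1 was Krt8 without m1 replicate 1 (F test, limma adjusted p = 0.0428). The set count was 220 genes without m2 replicate 2, 197 without m3 replicate 1, 226 without m3 replicate 2, 209 without m3 replicate 3, and 175 without both m3 replicate 3 and m1 replicate 4, an alternative chosen after seeing the data. The other causes were not tested. The share of calls against kidney that were higher in tubules was 18.9%, and became 50.7% with median-of-ratios rescaling and 64.7% with quantile normalization.

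Libraries of different sets that share a replicate number share only that number in the labels. Their deviations from the set means correlated between 0.0254 and 0.273 in 12 pairs, above 0.1 in 7 of them, and 9 of 12 libraries correlated best with a library of their own number. With the replicate block, 888 genes were called among the sets, and Krt8 passed for m3 against m1 (limma adjusted p = 0.0306) but not in the F test (adjusted p = 0.0600). In the correlations with the replicate block, added after seeing the data, Spp1 kept its call with thick ascending limb markers (r = 0.94, exact permutation, adjusted p = 0.0116) and Havcr1 lost its call with collecting duct markers (r = -0.72). Depth is not recorded in TPM, which limits what can be said of levels near 0.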
